A study of Mus musculus with 8 samples.

Results

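The 10 genes described here, *Stab2*, *Lyve1*, *Clec4g*, *Kdr*, *Tek*, *Ptprb*, *Pecam1*, *Oit3*, *Dnase1l3* and *Egfl7*, are used as markers of liver sinusoidal endothelial cells, and *Kdr*, *Tek*, *Ptprb*, *Pecam1* and *Egfl7* are shared with other endothelium. They were chosen by symbol, with no threshold on a measured value, from the 55401 genes of a count table of cultured hepatic macrophages. Liver sinusoidal endothelial cells line the sinusoids, the low-pressure capillaries between the hepatocyte plates, and sit next to the resident macrophages (Kupffer cells). They are fenestrated, lack an organized basement membrane, and clear macromolecules from blood through scavenger and lectin receptors. VEGF and angiopoietin signalling maintains them, and in fatty or fibrotic livers they can lose fenestrae and take on features of ordinary capillary endothelium.

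RNA was measured by poly(A) RNA sequencing in 8 libraries of hepatic macrophages, 2 for each of 4 groups. The cells were taken from normal livers (WT mice on a standard diet) or steatotic livers (MC4R-KO mice given 6 to 10 wk of Western diet), all on the C57BL/6J strain background. After selection on magnetic columns with an F4/80 antibody, they spent 24 h on collagen-coated plates in either vehicle (Veh) or 500 µg/ml cholesterol crystals (CC). The 4 groups are called normal Veh, normal CC, steatotic Veh and steatotic CC, and the comparisons asked how the liver of origin, the crystals, and both together moved the endothelial markers that were read in these macrophage libraries. The paper describes its mice as male and 8 wk old when the Western diet began. The age at cell isolation was not given in the sources used here, and neither was pooling of animals. Genotype and diet changed together between the livers, so these cannot be told apart.

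The libraries held between 58668655 and 74529462 counts each, and values are given as CPM, the counts of a gene scaled to the library total. *Mc4r*, the gene disrupted in the MC4R-KO mice, had 0 counts in all 4 libraries labelled normal, but 28 and 22 counts in steatotic Veh and 53 and 72 in steatotic CC. This goes against the labels unless the disrupted allele gives reads, so each direction below compares the libraries labelled steatotic with the libraries labelled normal. Macrophage genes dominated every library, in which 10 macrophage markers summed to 10473 to 17369 CPM, against 99.4 to 279 CPM for the 10 sinusoidal markers. The sources do not say whether same-numbered libraries came from the same animals, so the p-values measure only the spread between these libraries, which may be technical.

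The annotated start regions of 4 of the markers are shown first, to place the genes whose values follow. They are the 150 bases directly upstream of the annotated exons of *Stab2* and *Kdr*, both on the minus strand, *Clec4g* (minus strand) and *Tek* (plus strand), from the RefSeq promoter table for GRCm38.p6, which held 5 of the 10 markers. They lie at chr10:87008026-87008175, chr5:75978459-75978608, chr8:3720652-3720801 and chr4:94739139-94739288, and are written 5′ to 3′ on the strand of the gene.
Stab2: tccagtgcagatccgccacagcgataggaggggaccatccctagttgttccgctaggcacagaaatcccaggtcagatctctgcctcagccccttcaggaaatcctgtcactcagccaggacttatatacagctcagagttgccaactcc
Kdr: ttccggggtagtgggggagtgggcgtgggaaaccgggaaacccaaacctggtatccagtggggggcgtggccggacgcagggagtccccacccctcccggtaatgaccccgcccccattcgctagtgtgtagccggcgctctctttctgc
Clec4g: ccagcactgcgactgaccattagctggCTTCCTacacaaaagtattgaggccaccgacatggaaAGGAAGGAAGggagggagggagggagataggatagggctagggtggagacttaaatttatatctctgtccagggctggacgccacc
Tek: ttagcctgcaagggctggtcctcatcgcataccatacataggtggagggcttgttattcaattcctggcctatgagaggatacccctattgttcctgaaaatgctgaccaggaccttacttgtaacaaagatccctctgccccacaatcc
Capitals mark AGGAAG or its reverse complement CTTCCT, letters that ETS factors (a transcription factor family that is active in endothelium) can bind. *Clec4g* held 3 such matches, of which 2 overlap, and the windows of *Stab2*, *Kdr* and *Tek* held 0. Of 32851 windows of the same length in the table, 19.7% held at least 1 match on either strand. Those windows end at the RefSeq start. The *Stab2* and *Kdr* windows were moved 83 and 3 bases further upstream to clear annotated exons, and those of *Egfl7* were also moved. The shares of all windows thus come from a slightly different placement. ACAAT or ATTGT, letters of SOX factors, occurred 2 times in the *Tek* window, 0 times in the other 3, and in 17.4% of all windows. GATAA or TTATC, letters of GATA factors, occurred 0 times in all 4, against 13.3% of all windows. *Egfl7*, the fifth marker in the table, has 3 annotated starts and is not printed because no single window stands for it. Its windows held 2, 1 and 0 ETS matches, and the one with 1 also held 1 GATA match. These matches describe the letters of these windows only. *Clec4g*, whose window had the most matches, had the lowest level of the 10 markers in these libraries, as described next.

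Of the 10 markers, 9 passed the filter for testing (at least 0.5 CPM in at least 1 library) and *Clec4g* did not. The 9 did not move as a block. *Pecam1* and *Dnase1l3* were several times higher in steatotic Veh than in normal Veh and fell with CC, *Kdr* was higher in steatotic Veh and rose further with CC, *Oit3* rose with CC under both labels, and *Tek* and *Ptprb* passed the threshold in no comparison. In bulk RNA, fewer cells of a type and less RNA per cell cannot be told apart, and the cells that carried these transcripts were not identified here.

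**Figure D1:**
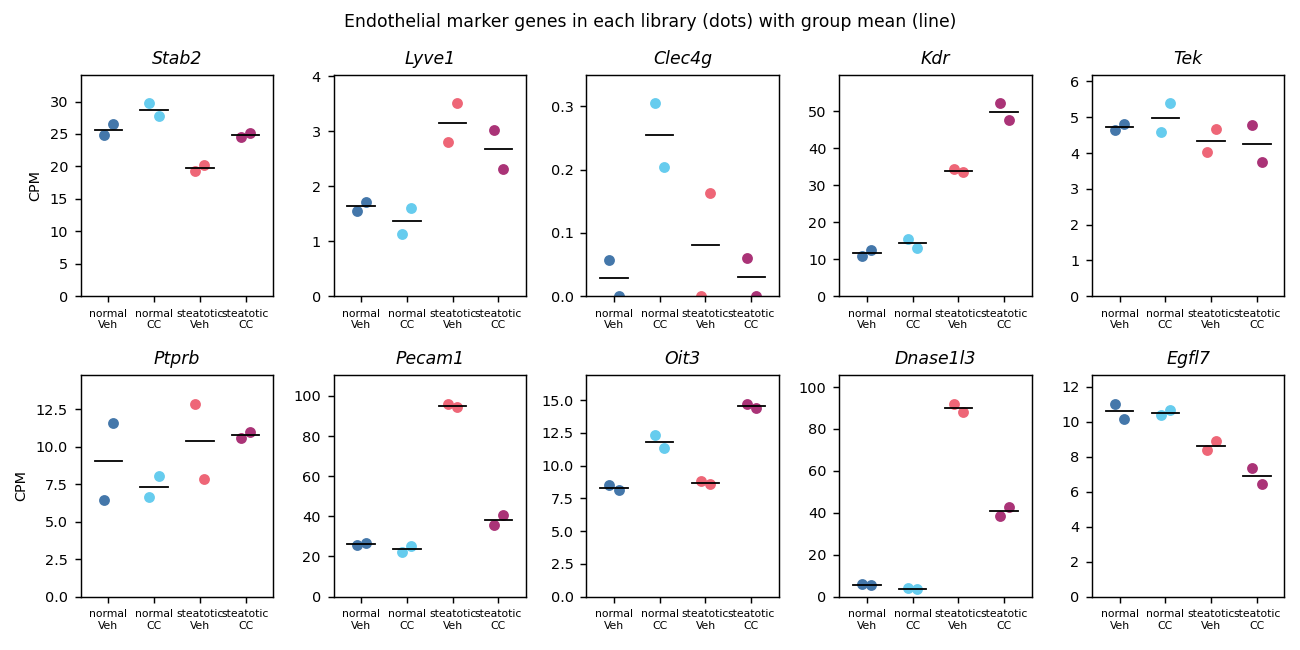
Level of each of the 10 sinusoidal endothelial markers in CPM (vertical axis, starting at 0, with its own scale in each panel) in the 4 groups, with a dot for each of 2 libraries and a line for their mean. *Pecam1* and *Dnase1l3* are highest in steatotic Veh and *Kdr* in steatotic CC, *Oit3* is higher in both CC groups, and *Clec4g* stays at or below 0.304 CPM.

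Compared per length (CPM divided by the kilobases of merged exons), *Pecam1* led in normal Veh at 4.19 ± 0.123 CPM per kb (mean ± SD, n = 2). *Oit3* (2.98 ± 0.0913 CPM per kb), *Egfl7* (2.96 ± 0.169) and *Stab2* (2.93 ± 0.135) followed, with library ranges that overlapped one another. *Kdr* (1.30 ± 0.133 CPM per kb), *Dnase1l3* (1.09 ± 0.0730) and *Tek* (1.00 ± 0.0256) came next without overlap, and *Ptprb* (0.677 ± 0.271) overlapped *Lyve1* (0.562 ± 0.0395). In steatotic Veh the order changed at the top, to *Dnase1l3* at 17.5 ± 0.524 and *Pecam1* at 15.3 ± 0.206 CPM per kb, followed by *Kdr* at 3.76 ± 0.0479. *Lyve1*, *Tek* and *Ptprb* were the lowest of the 9 in that group, between 0.589 and 1.20 CPM per kb, with overlapping ranges. In normal CC, *Oit3* (4.24 ± 0.246 CPM per kb) and *Pecam1* (3.79 ± 0.321) led without overlap. In steatotic CC, *Dnase1l3* (7.91 ± 0.574 CPM per kb) led, and *Pecam1* (6.12 ± 0.595) overlapped *Kdr* (5.51 ± 0.359), which overlapped *Oit3* (5.22 ± 0.0911). *Clec4g* was last in all 4 groups, with means from 0.0115 to 0.103 CPM per kb.

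The scavenger and lectin receptors, through which sinusoidal endothelium takes up hyaluronan, matrix fragments and modified proteins, come first. *Stab2* (ENSMUSG00000035459.18, GRCm38 chr10:86841198-87008025, 72 merged exons) encodes stabilin-2, a clearance receptor for hyaluronan. Its level was 24.8 and 26.5 CPM in normal Veh, 29.7 and 27.7 CPM in normal CC, 19.4 and 20.2 CPM in steatotic Veh, and 24.5 and 25.2 CPM in steatotic CC. Every steatotic Veh library was below every library of the other groups. At Veh, *Stab2* fell by 0.33 on the log2 scale (SE 0.0744, adjusted p = 0.0130, edgeR quasi-likelihood test, Benjamini-Hochberg) in the libraries labelled steatotic. Of the 9 tested markers, it was the 1 that fell at Veh, when 14.3% of the 15202 tested genes fell and 30.7% changed in either direction. With CC it rose by 0.35 (SE 0.0744, adjusted p = 0.0135) under the label steatotic, and the fitted difference of 0.20 (SE 0.0743, adjusted p = 0.142) under the label normal missed the threshold. The difference between these responses to CC was 0.15 on the log2 scale (95% interval -0.10 to 0.39, adjusted p = 0.624), and with CC the steatotic libraries were at -0.18 against the normal ones (adjusted p = 0.111). Both of its calls rested on single libraries. The adjusted p at Veh was 0.0706 without normal Veh replicate 2 and 0.0719 without steatotic Veh replicate 1, and that of the CC response under the label steatotic was 0.0793 without steatotic Veh replicate 1 and 0.0615 without steatotic CC replicate 2. An antisense gene, *Gm16268*, shares 141 exonic bases with *Stab2*, and whether the counting used strand was not stated.

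*Lyve1* (ENSMUSG00000030787.4, chr7:110850607-110863239, minus strand, 6 merged exons) encodes a hyaluronan receptor of lymphatic and sinusoidal endothelium that some tissue macrophages also carry. It had the second lowest level of the markers in CPM, at 1.56 and 1.72 CPM in normal Veh, 1.14 and 1.60 CPM in normal CC, 2.81 and 3.51 CPM in steatotic Veh, and 3.02 and 2.32 CPM in steatotic CC. All 4 steatotic libraries lay above all 4 normal ones, and the Veh and CC libraries overlapped under both labels. The log2 difference between the labels was 0.99 at Veh (SE 0.251, adjusted p = 0.0215) and 0.99 with CC (SE 0.255, adjusted p = 0.0242). Each call was lost when certain libraries were left out. At Veh the adjusted p became 0.104 without normal Veh replicate 1, 0.0673 without normal Veh replicate 2 and 0.109 without steatotic Veh replicate 2. With CC it became 0.120 without normal CC replicate 1 and 0.117 without steatotic CC replicate 1, and it was 0.0539 with the 4 CC libraries alone.

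*Clec4g* (ENSMUSG00000074491.9, chr8:3707064-3720651, minus strand, 11 merged exons) encodes LSECtin, a lectin that is one of the most selective markers of sinusoidal endothelium in liver. Its counts were 4 and 0 in normal Veh, 19 and 12 in normal CC, 0 and 12 in steatotic Veh, and 4 and 0 in steatotic CC, at most 0.304 CPM. A count of 3, the limit that a count of 0 allows, equals 0.0403 to 0.0511 CPM by library, or 0.161 to 0.205 CPM for 3 fragments if each stands for 4 counts, so its level was at or close to the limit of detection in all 8 libraries. No comparison was made on it. An antisense gene, *Gm16553*, shares 146 exonic bases with it.

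Receptors of the VEGF and angiopoietin pathways keep endothelium alive and quiescent. *Kdr* (ENSMUSG00000062960.10, chr5:75932827-75978458, minus strand, 29 merged exons) encodes VEGF receptor 2, the main signalling receptor for VEGF-A. It was at 10.9 and 12.5 CPM in normal Veh, 15.5 and 13.1 CPM in normal CC, 34.2 and 33.6 CPM in steatotic Veh, and 52.0 and 47.5 CPM in steatotic CC. The steatotic libraries did not overlap the normal ones, and the 2 CC libraries were above the 2 Veh libraries under both labels. At Veh, *Kdr* was 2.99-fold higher in the steatotic libraries (log2 difference 1.58, SE 0.109, adjusted p = 3.72e-05), and with CC 3.54-fold higher (log2 difference 1.82, SE 0.108, adjusted p = 2.14e-05). It was 1 of the 4 tested markers that rose at Veh, when 16.4% of all tested genes rose. CC raised *Kdr* by 0.57 on the log2 scale under the label steatotic (SE 0.107, adjusted p = 0.00746), and the fitted difference under the label normal was 0.33 (SE 0.110, adjusted p = 0.108). The responses differed by 0.24 on the log2 scale, with a 95% interval of -0.12 to 0.60 (adjusted p = 0.568). Without steatotic CC replicate 1, the adjusted p of the CC response under the label steatotic was 0.0501.

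*Tek* (ENSMUSG00000006386.15, chr4:94739289-94874976, plus strand, 23 merged exons) encodes Tie2, the receptor for angiopoietins, which a subset of macrophages can also carry. Its level stayed between 3.74 and 5.39 CPM in all 8 libraries, with 4.65 and 4.82 CPM in normal Veh, 4.60 and 5.39 CPM in normal CC, 4.04 and 4.66 CPM in steatotic Veh, and 4.79 and 3.74 CPM in steatotic CC. The groups overlapped in every comparison. The fitted log2 differences ran from -0.20 to 0.11, and the interval at Veh, -0.49 to 0.34, leaves room for a change in either direction.

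*Ptprb* (ENSMUSG00000020154.10, chr10:116275523-116389535, plus strand, 35 merged exons) encodes VE-PTP, a phosphatase that restrains Tie2 and stabilizes endothelial junctions. Its replicates were far apart in both Veh groups, with 6.47 and 11.6 CPM in normal Veh, 6.65 and 8.05 CPM in normal CC, 12.9 and 7.86 CPM in steatotic Veh, and 10.6 and 11.0 CPM in steatotic CC. Only with CC did the libraries of the labels separate, and that log2 difference of 0.58 (95% interval -0.25 to 1.41) had an adjusted p of 0.269, or 0.0338 when the 4 CC libraries were fitted alone. At Veh the interval, -0.58 to 1.07, was too wide to exclude a 2-fold higher level.

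*Pecam1* (ENSMUSG00000020717.19, chr11:106654217-106750628, minus strand, 17 merged exons) encodes CD31, an adhesion molecule of endothelial junctions that platelets and many leukocytes also carry. It was at 25.5 and 26.6 CPM in normal Veh and at 22.2 and 25.0 CPM in normal CC. In steatotic Veh it was at 96.1 and 94.3 CPM, and in steatotic CC at 35.5 and 40.7 CPM. The steatotic Veh libraries were thus far above all others, and the steatotic CC libraries lay between them and the normal ones. At Veh, *Pecam1* was 3.77-fold higher in the steatotic libraries (log2 difference 1.91, SE 0.0849, adjusted p = 4.69e-06). With CC it fell by 1.30 on the log2 scale under the label steatotic (SE 0.0846, adjusted p = 3.91e-05), 1 of 2 tested markers that fell in that comparison, in which 10.9% of all tested genes fell. Under the label normal the fitted difference was -0.11 (SE 0.0857, adjusted p = 0.497). The difference between the responses was -1.20 on the log2 scale (SE 0.120, 95% interval -1.48 to -0.91, adjusted p = 0.00368), and *Pecam1* was the 1 marker of 9 that passed this test, which 1.27% of all tested genes passed in this direction, 1.95% in the other and 3.22% in either. With CC, the steatotic libraries remained higher by 0.72 (SE 0.0854, adjusted p = 0.000689). All these calls of *Pecam1* held when any single library was left out, with a log2 difference between responses of -1.30 to -1.10.

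The secreted products form the last group. *Dnase1l3* (ENSMUSG00000025279.7, chr14:7964533-7994573, minus strand, 9 merged exons) encodes a secreted DNase that degrades DNA in cell remnants, and macrophages and dendritic cells also make it. It had the widest range of the 10 markers, with 5.89 and 5.36 CPM in normal Veh, 3.96 and 3.56 CPM in normal CC, 92.0 and 88.2 CPM in steatotic Veh, and 38.6 and 42.8 CPM in steatotic CC. No pair of groups overlapped. At Veh it was 16.5-fold higher in the steatotic libraries (log2 difference 4.05, SE 0.0862, adjusted p = 3.96e-07), and with CC 11.0-fold higher (3.46, SE 0.0885, adjusted p = 7.11e-07). CC lowered it under both labels. It fell by 0.54 on the log2 scale under the label normal (SE 0.0911, adjusted p = 0.00833), the 1 tested marker that fell there, when 5.54% of all tested genes fell, and by 1.13 under the label steatotic (SE 0.0834, adjusted p = 7.38e-05). The difference between the responses, -0.58 (SE 0.124, adjusted p = 0.0528), missed the threshold in edgeR and passed it in DESeq2 (adjusted p = 0.0168) and with every gene with a count tested (adjusted p = 0.0202). The fall under the label normal had an adjusted p of 0.0537 without normal CC replicate 2, and of 0.0902 with the 4 normal libraries alone.

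*Oit3* (ENSMUSG00000009654.4, chr10:59422958-59441778, minus strand, 9 merged exons) encodes a secreted zona pellucida domain protein that is made mainly in liver. It was at 8.50 and 8.14 CPM in normal Veh, 12.3 and 11.3 CPM in normal CC, 8.83 and 8.58 CPM in steatotic Veh, and 14.7 and 14.4 CPM in steatotic CC. The 4 CC libraries were above the 4 Veh libraries. CC raised *Oit3* by 0.54 on the log2 scale under the label normal (SE 0.0945, adjusted p = 0.00996), the 1 tested marker that rose there, when 6.27% of all tested genes rose. Under the label steatotic it rose by 0.76 (SE 0.0940, adjusted p = 0.000954), with *Kdr* and *Stab2* the 3 markers that rose in this comparison, in which 12.0% of all tested genes rose. The difference between the responses was 0.22 (95% interval -0.10 to 0.53, adjusted p = 0.554). At Veh the labels differed by 0.11 (95% interval -0.11 to 0.33, adjusted p = 0.430). With CC the steatotic libraries were higher by 0.33 (SE 0.0938, adjusted p = 0.0364), a call that was lost when any of the 8 libraries was left out (adjusted p from 0.0513 to 0.170). The rise under the label normal had an adjusted p of 0.0550 without normal Veh replicate 2 and of 0.0644 without normal CC replicate 1.

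*Egfl7* (ENSMUSG00000026921.20, chr2:26580014-26593120, plus strand, 11 merged exons) encodes a secreted matrix protein of endothelium and hosts a microRNA gene. It was at 11.0 and 10.2 CPM in normal Veh, 10.4 and 10.7 CPM in normal CC, 8.37 and 8.92 CPM in steatotic Veh, and 7.35 and 6.43 CPM in steatotic CC. All steatotic libraries were below all normal ones, and the lowest were those with CC. With CC, *Egfl7* was lower by label, at -0.58 on the log2 scale (SE 0.114, adjusted p = 0.00725), while the difference at Veh was -0.25 (SE 0.113, adjusted p = 0.142) and the response to CC under the label steatotic -0.31 (SE 0.114, adjusted p = 0.0963). Its exons share 264 bases with *Gm20532*, 73 with *Mir126a*, 58 with *Mir126b* and 64 with *Agpat2*, so reads of these genes could have entered its counts.

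**Figure D2:**
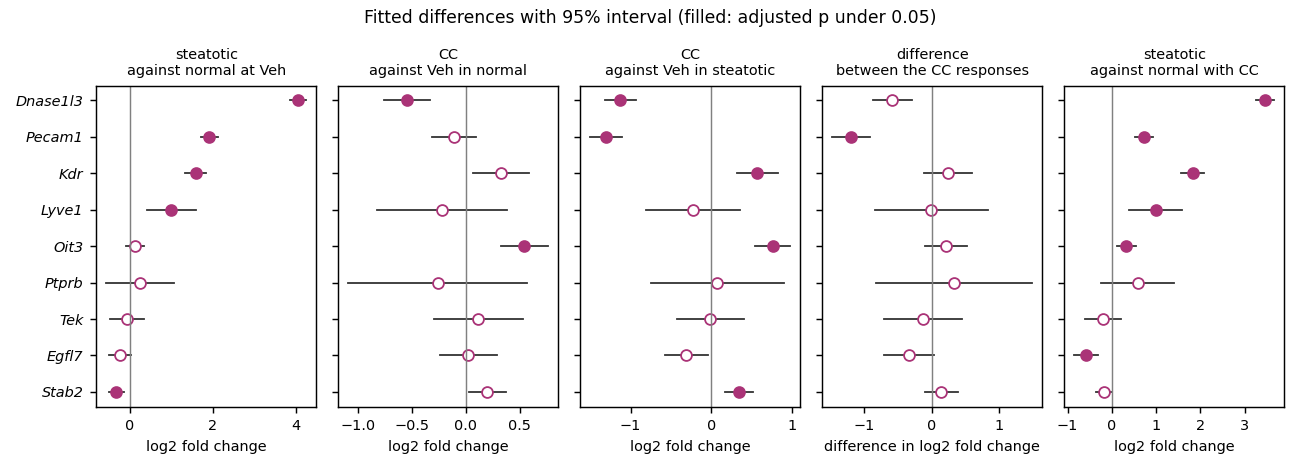
Fitted log2 difference (horizontal axis, with its own scale in each panel) of the 9 tested markers in 5 comparisons, with points for estimates, lines for 95% intervals and filled points for an adjusted p under 0.05. *Pecam1* and *Dnase1l3* lie to the right at Veh and to the left in the CC response under the label steatotic, and *Pecam1* is the 1 filled point, at -1.20, in the difference between the responses.

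Counted over the 9 tested markers, 4 rose and 1 fell at Veh between the labels, with a median log2 difference of 0.25, against a median of -0.01 over all 15202 tested genes, of which 16.4% rose and 14.3% fell. With CC under the label normal 1 rose and 1 fell (median 0.02), against 6.27% and 5.54% of all tested genes. Under the label steatotic 3 rose and 2 fell (median -0.01), against 12.0% and 10.9%. The medians of all genes for these responses were -0.000588 and 0. Between the labels with CC, 5 rose (*Lyve1*, *Kdr*, *Pecam1*, *Oit3* and *Dnase1l3*) and 1 fell (*Egfl7*), when 15.9% of all tested genes rose and 12.9% fell.

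The sum of the 10 markers mostly followed *Pecam1*, *Dnase1l3* and *Kdr*. It was 99.4 and 107 CPM in normal Veh, 107 and 107 CPM in normal CC, 279 and 270 CPM in steatotic Veh, and 191 and 194 CPM in steatotic CC. *Pecam1* and *Dnase1l3* made up 24.5% to 31.6% of this sum in the normal libraries, 67.5% and 67.6% in steatotic Veh, and 38.8% and 43.1% in steatotic CC. The 8 other markers summed to 67.9 to 80.6 CPM in the normal libraries, 90.5 and 87.5 CPM in steatotic Veh, and 117 and 110 CPM in steatotic CC. Of these 8, *Kdr* varied most in mean CPM. It was at 11.7 in normal Veh, 14.3 in normal CC, 33.9 in steatotic Veh and 49.7 in steatotic CC. At Veh the means of *Lyve1*, *Oit3* and *Ptprb* were higher by less under the label steatotic. Those of *Stab2*, *Tek* and *Egfl7* were lower, and *Clec4g* was near 0. With all 10 the steatotic Veh libraries were the highest, and without *Pecam1* and *Dnase1l3* the steatotic CC libraries were. Relative to the 10 macrophage markers, the sum was 0.572% to 0.791% in the normal libraries and 1.65% to 2.18% in the steatotic ones.

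Other endothelial genes give the levels against which the markers can be read. Among 9 further genes known from sinusoidal endothelium, *Wnt9b* was at 0 in all libraries, *Wnt2* and *Rspo3* reached at most 0.421 and 0.366 CPM, and the highest, *Flt4*, *F8* and *Bmp2*, averaged 6.44, 2.51 and 2.03 CPM. Of the 6 that were tested, when 16.4% of all tested genes rose and 14.3% fell, 0 rose and 1 fell at Veh, *Bmp2*, a ligand through which this endothelium signals to hepatocytes about iron, at -1.04 on the log2 scale (adjusted p = 0.0191, edgeR, and 0.0896 without normal Veh replicate 2 or 0.0911 without steatotic Veh replicate 1). Their summed level, 15.6 to 17.5 CPM in normal Veh and 15.5 to 15.8 CPM in steatotic Veh, overlapped, and it was lower with CC under the label steatotic, at 12.4 to 13.7 CPM. Of the 5 genes that sinusoidal endothelium shares with macrophages (*Stab1*, *Mrc1*, *Fcgr2b*, *Cd36* and *Maf*), all 5 rose at Veh between the labels, against 16.4% of all tested genes, and their sum was 1851 to 1895 CPM in normal Veh and 2903 to 3043 CPM in steatotic Veh. With CC under the label steatotic, 3 of these 5 fell and 1 rose, when 10.9% of all tested genes fell and 12.0% rose. *Cd36*, a fatty acid transporter and the most abundant, rose from 1356 and 1494 CPM to 1757 and 2048 CPM (log2 difference 0.43, SE 0.0759, adjusted p = 0.00699). *Mrc1*, the mannose receptor, at 423 and 449 CPM in steatotic Veh, fell to 135 and 143 CPM in steatotic CC (log2 difference -1.64, SE 0.0449, adjusted p = 1.58e-06).

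The 28 pan-endothelial genes summed to 254 to 260 CPM in normal Veh, 277 to 290 CPM in steatotic Veh, 290 to 297 CPM in normal CC and 330 to 349 CPM in steatotic CC. *Cdh5*, the VE-cadherin of endothelial junctions, was the most abundant of them at a mean of 91.7 CPM, followed by *Eng* and *Calcrl* at 41.9 and 33.9 CPM. At Veh, 5 of the 28 rose between the labels and 4 fell, close to the 16.4% and 14.3% of all tested genes, with a median log2 difference of -0.03. *Plvap*, a protein of the diaphragms of fenestrae and caveolae, rose most, from 1.39 and 0.815 CPM to 7.03 and 5.99 CPM (log2 difference 2.60, SE 0.361, adjusted p = 0.00177). *Cldn5*, a tight junction claudin, fell from 4.55 and 3.96 CPM to 0.995 and 0.951 CPM (-2.08, SE 0.206, adjusted p = 0.000247). With CC under the label steatotic, 4 rose and 1 fell, when 12.0% of all tested genes rose and 10.9% fell. *Vwf*, the clotting factor carrier stored in endothelial granules and platelets, rose from 3.44 and 3.47 CPM to 17.2 and 16.0 CPM (2.28, SE 0.108, adjusted p = 9.95e-06), in the direction opposite to *Pecam1*.

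**Figure D3:**
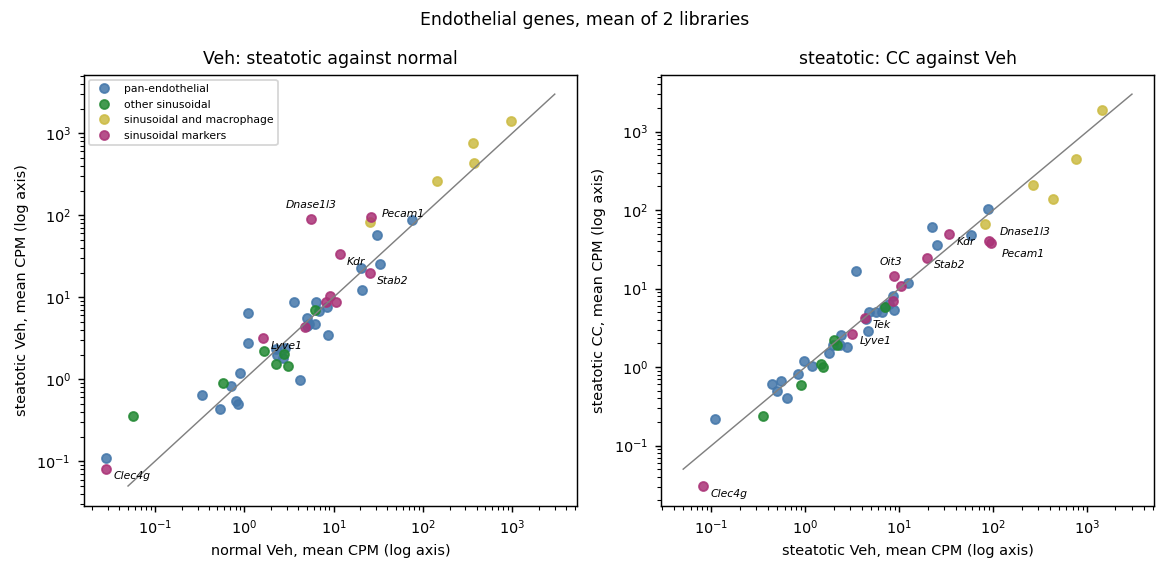
Mean CPM of 2 libraries for the 10 sinusoidal markers and 3 lists of other endothelial genes, steatotic Veh against normal Veh on the left and steatotic CC against steatotic Veh on the right, on log axes, with a line of equal level. *Dnase1l3*, *Pecam1* and *Kdr* lie above the line on the left, *Dnase1l3* and *Pecam1* below it on the right, and 2 genes with a group mean of 0 are not drawn.

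The ligands and other receptors of the pathways in which *Kdr*, *Tek* and *Ptprb* act were read in the same libraries. *Vegfa*, the main ligand of the *Kdr* product, was at 2.29 and 2.02 CPM in normal Veh, 6.15 and 5.83 CPM in normal CC, 11.7 and 10.8 CPM in steatotic Veh, and 35.0 and 39.4 CPM in steatotic CC. Every comparison of groups separated, in the same order of groups as for *Kdr*. It rose by 2.42 on the log2 scale at Veh between the labels (SE 0.111, adjusted p = 5.35e-06), by 1.51 with CC under the label normal (SE 0.112, adjusted p = 0.000208) and by 1.74 with CC under the label steatotic (SE 0.104, adjusted p = 2.67e-05). *Vegfb*, a ligand of VEGF receptor 1, went the other way between the labels, from 22.5 and 23.3 CPM in normal Veh to 5.83 and 5.69 CPM in steatotic Veh (-1.95, SE 0.0956, adjusted p = 7.42e-06). *Pgf*, another ligand of that receptor, rose with CC from 8.43 and 9.01 CPM to 31.6 and 29.1 CPM under the label normal and from 7.82 and 7.19 CPM to 11.7 and 10.2 CPM under the label steatotic, where the adjusted p was 0.0521 without steatotic Veh replicate 2. Its responses differed by -1.28 on the log2 scale (SE 0.150, adjusted p = 0.00576).

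*Angpt2*, the angiopoietin that mostly blocks Tie2, was at 47.6 and 48.8 CPM in normal Veh and lower in steatotic Veh, at 35.5 and 34.9 CPM (-0.41, SE 0.0661, adjusted p = 0.00275), whereas *Angpt1*, the activating ligand, reached at most 0.234 CPM and was not tested. *Nrp1*, a co-receptor of *Kdr*, was at 50.6 and 54.7 CPM in normal Veh and 63.7 and 65.5 CPM in normal CC, and at 52.1 and 50.3 CPM in steatotic Veh and 39.2 and 37.6 CPM in steatotic CC. It fell with CC under the label steatotic (-0.40, SE 0.0597, adjusted p = 0.00238), and its responses differed by -0.73 (SE 0.0844, adjusted p = 0.00573). *Nrp2*, also a co-receptor, was the most abundant gene of the pathway, with 449 to 561 CPM over the 8 libraries. *Flt1*, VEGF receptor 1, had 3.57 to 8.86 CPM, *Flt4*, VEGF receptor 3, had 5.62 to 7.51 CPM, and *Tie1*, the partner of Tie2, had 4.50 to 5.74 CPM. *Flt4* and *Tie1*, like *Tek*, passed the threshold in no comparison. *Vegfc* was at 0.119 to 2.94 CPM, and *Vegfd* was at 0 in all libraries. Of the 12 genes of this list 10 were tested. At Veh 1 rose and 2 fell between the labels, when 16.4% and 14.3% of all tested genes did. With CC 4 rose and 0 fell under the label normal, against 6.27% and 5.54%, and 5 rose and 1 fell under the label steatotic, against 12.0% and 10.9%. Of these, the rise of *Nrp1* under the label normal had an adjusted p of 0.0648 without normal Veh replicate 1 and 0.0699 without normal CC replicate 2. Under the label steatotic, the rise of *Angpt2* (adjusted p = 0.0479) was lost without any library but steatotic CC replicate 2 (0.0681 to 0.227). That of *Vegfb* was lost without steatotic Veh replicate 1 (0.0741), steatotic Veh replicate 2 (0.0923) or steatotic CC replicate 1 (0.103), and that of *Nrp2* without steatotic Veh replicate 2 (0.0669).

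**Figure D4:**
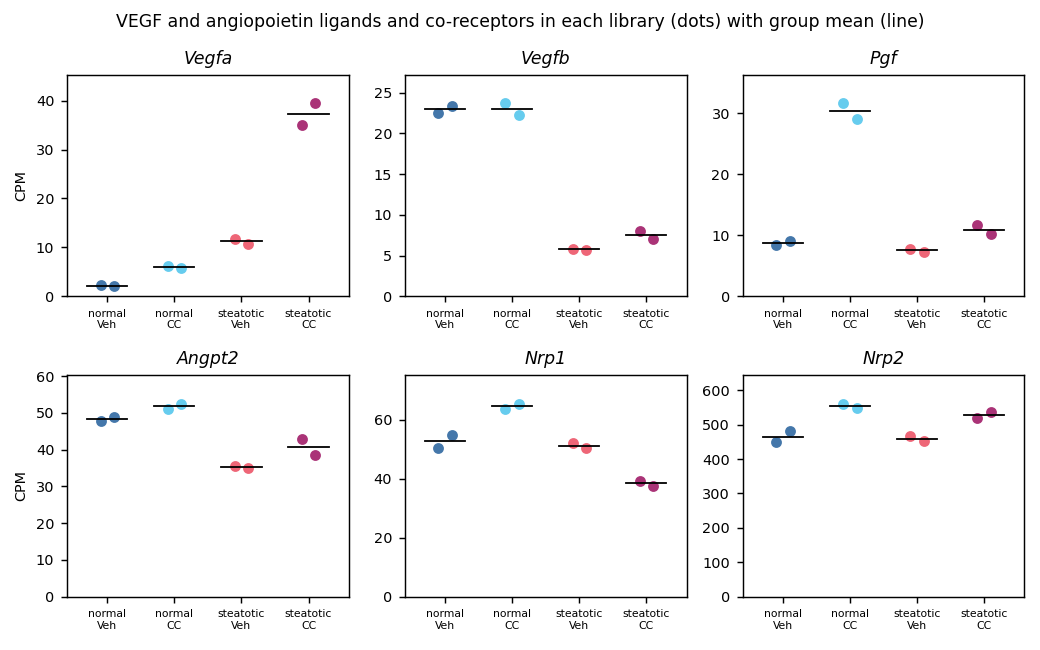
Level in CPM (vertical axis, starting at 0, with its own scale in each panel) of 6 VEGF and angiopoietin pathway genes in the 4 groups, with a dot for each of 2 libraries and a line for their mean. *Vegfa* climbs from 2.02 and 2.29 CPM in normal Veh to 35.0 and 39.4 CPM in steatotic CC, *Vegfb* and *Angpt2* are lower in the steatotic groups, and *Pgf* is highest in normal CC.

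Markers of other cells also differed between the groups. The 7 T or NK cell markers summed to 4.27 to 5.65 CPM in normal Veh and 55.4 to 59.8 CPM in steatotic Veh, mostly from *Gzmb*, which rose at Veh between the labels. The 6 others were at most 0.283 CPM in the normal libraries and passed the filter for testing only through the steatotic ones, which left a rise as the only direction open to them, so their calls are not counted here. Next were *Trbc2* and *Cd8a*, at means of 0.925 and 0.923 CPM over the 8 libraries. *Cd8a*, *Ncr1* and *Trbc2* were at or near 0 in normal CC, so their fitted changes against that group are not ranked. Of 4 platelet markers, *Pf4* carried nearly all of a sum of 12.9 to 15.0 CPM in normal Veh and 78.7 to 81.2 CPM in steatotic Veh, while *Ppbp*, *Itga2b* and *Gp9* were at or below 0.366 CPM. Of 9 tested hepatocyte markers, *Trf*, *Alb* and *Apoa2* led with means of 82.3, 24.2 and 1.84 CPM. At Veh between the labels *Alb* and *Apoa2* fell, when 14.3% of all tested genes fell. *Trf* went the other way without a call, with means of 97.9 CPM in normal Veh and 110 CPM in steatotic Veh. The 6 others were at most 0.234 CPM in the steatotic libraries and passed the filter only through the normal ones, which left a fall as the only direction open to them. *Alb* ranged from 1.24 to 49.4 CPM over the 8 libraries. *Fgb*, *Ahsg* and *Serpina1c* were at or near 0 in steatotic CC, so their fitted changes against that group are not ranked either. Of the 10 macrophage markers 4 rose and 5 fell at Veh, when 16.4% of all tested genes rose and 14.3% fell, with sums of 16873 to 17369 CPM in normal Veh and 12764 to 13063 CPM in steatotic Veh. Their most abundant genes were *Lyz2*, *Cd68* and *Cd5l*, at means of 5290, 2898 and 2320.0 CPM, and the largest called changes were those of *Vsig4* (587 to 85.8 CPM) and *Cd163* (3.08 to 0.618 CPM) with CC under the label steatotic and of *Marco* between the labels at Veh (366 to 92.9 CPM). *Adgre1*, which encodes F4/80, was at 1062 and 1087 CPM in normal Veh and 1739 and 1730 CPM in steatotic Veh. Stellate cell markers summed to 189 to 198 CPM in normal Veh and 295 to 308 CPM in steatotic Veh, mostly from *Ecm1*, followed by *Dcn* and *Rgs5* at means of 37.2 and 1.52 CPM, with *Lrat* and *Des* at or below 0.128 CPM. Cholangiocyte markers summed to 17.8 to 18.6 CPM and 61.0 to 69.0 CPM, mostly from *Spp1* in the steatotic libraries, with *Krt19* and *Krt7* at means of 3.74 and 3.66 CPM, and lymphatic endothelial markers to 29.6 to 32.4 CPM and 76.9 to 83.8 CPM, nearly all from *Pdpn*, with *Prox1* and *Mmrn1* at means of 0.468 and 0.00708 CPM. *Pecam1*, *Dnase1l3* and *Kdr* moved in the same direction as the T or NK cell and platelet sums at Veh. With CC under the label steatotic both sums were lower, at 41.1 to 41.8 CPM and 68.4 to 69.2 CPM. *Pecam1* and *Dnase1l3* were also lower there, while *Kdr* was higher. In this comparison 0 of the 7 T or NK cell markers were called (median log2 difference -0.29), when 10.9% of all tested genes fell. *Pf4*, the 1 tested platelet marker, was not called either (log2 difference -0.21). The part of these other markers in the results was not tested.

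**Figure D5:**
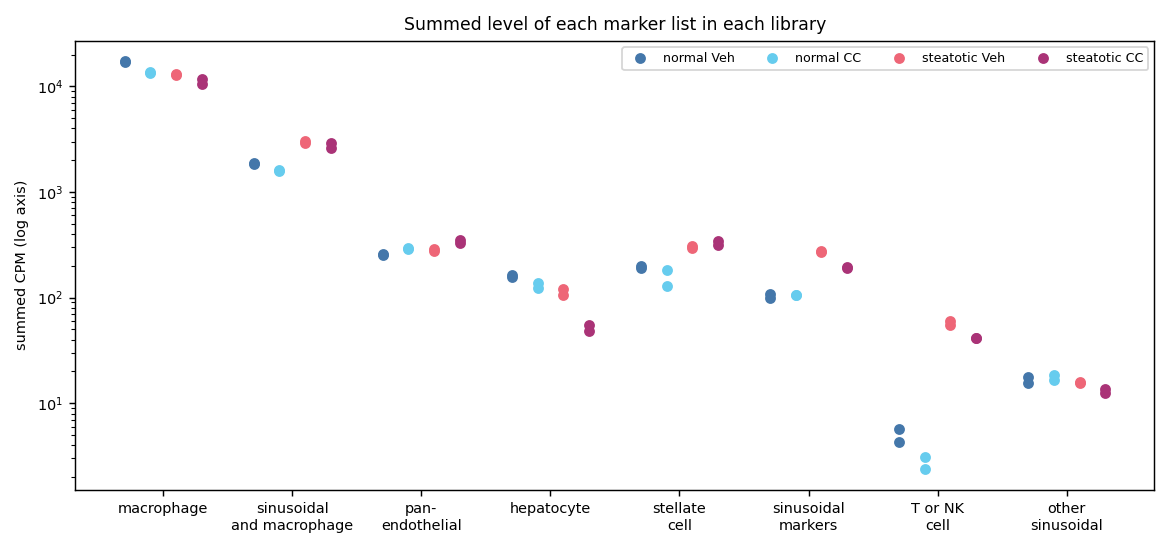
Summed CPM (vertical log axis) of 8 marker lists in each of the 8 libraries, with a colour for each group. Macrophage markers are at 10473 to 17369 CPM in all libraries, the 10 sinusoidal markers at 99.4 to 279 CPM, other sinusoidal genes at 12.4 to 18.5 CPM, and T or NK cell markers from 2.37 CPM in normal CC to 59.8 CPM in steatotic Veh.

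The genes whose pattern was most like that of a marker were sought among 12517 tested genes outside all lists, by Pearson's r of log2 CPM over the 8 libraries. Since the libraries form 4 groups of 2, these values mostly compare 4 group means and are descriptions without a test. For *Stab2* the closest were *Spag9* (r = 0.992), *Pip4k2c* (r = 0.991) and *Usp31* (r = 0.988). For *Kdr* they were *Tuba1a* (r = 0.997), *Nt5c3* (r = 0.997) and *H2-Q6* (r = 0.996), and for *Pecam1* they were *Etv5* (r = 0.994), *Kif21b* (r = 0.991) and *Tlr13* (r = 0.986). These 9 genes averaged 43.8 CPM or more over the libraries. *Tuba1a* and *H2-Q6* belong to families with near-identical copies, among which the counting could split reads, so their values are uncertain.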

How the data were processed

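Hepatic macrophage RNA was sequenced as 150 bp paired-end reads. Per the labels, fastp was used for trimming, HISAT2 for alignment (genome mm10) and StringTie for quantification, with versions not given in the sources used here. The deposited table holds estimated counts (expected counts) that are not normalized, for 55401 genes, with 1 column per library. The values are whole numbers and were used as deposited. The sources do not describe how coverage was turned into counts, and small values often come in steps of 4, so counts divided by 4 were an alternative. Whether counting used strand was not stated, and intervals and limits from counts cover counting error only.

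A gene was tested if any library reached 0.5 CPM (15202 of 28711 with any count, 29.3 to 37.3 counts at the filter). 1 model with 4 group means was fitted to all 8 libraries with edgeR 4.0.16 in R 4.3.3 (TMM, glmQLFit with robust estimation, glmQLFTest), and p-values were adjusted by Benjamini-Hochberg over all tested genes in each of 5 contrasts, with a threshold of 0.05. CPM uses total counts, and fold changes use TMM factors of 0.981 to 1.03. Standard errors come from the fitted model. The script was tested on simulated data with 100 genes changed 4-fold and 100 changed 2-fold. Of the 4-fold changes, 100 were recovered between the labels at Veh, 100 with CC under the label steatotic and 98 in the difference between the responses. Of the 2-fold changes, 68, 64 and 12 were recovered in the same order. An uncalled difference between the responses therefore does not show that they were alike. DESeq2 1.42.0, other scalings and filters, the replicate number as a block, fits of only the compared libraries and fits without each library were alternatives. GENCODE M21 (GRCm38) gave positions and exon lengths for 55141 of 55401 rows, and RefSeq (GRCm38.p6) the promoter windows. Figures were drawn with matplotlib 3.10.9.

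All 10 markers are named in every library. Of other lists, the text names the 3 most abundant genes, the called genes with the 3 largest changes in any contrast and every VEGF and angiopoietin pathway gene, and other names were chosen after their values were seen. For likeness, genes needed a mean of 1 CPM, and log2 CPM used a prior count of 2. The markers and lists were chosen with earlier results of these data known.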

Additional observations from a re-analysis of the deposited data

Results flagged for a closer look

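The responses to CC under the labels steatotic and normal differed by the interaction test of the fitted model (edgeR quasi-likelihood, adjusted over all tested genes) for 1 of 9 tested sinusoidal markers and 7 of 41 tested other endothelial genes, when 3.22% of all tested genes did so. They are given here as values. *Pecam1* had a difference of -1.20 on the log2 scale (SE 0.120), with a fall in both steatotic CC libraries relative to both steatotic Veh libraries and a fitted change of -0.11 under the label normal. *Mrc1* (-0.89, SE 0.0634) and *Maf* (-0.25, SE 0.0486) fell with CC under both labels, more under the label steatotic, and *Maf* lost its call in each of the 8 fits that left out a library (adjusted p from 0.0720 to 0.134).

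*Vwf* (1.26, SE 0.151), *Calcrl* (0.76, SE 0.0943) and *Pdpn* (0.97, SE 0.115) rose with CC under both labels, more under the label steatotic. *Ramp2*, the partner of the *Calcrl* product in the adrenomedullin receptor, had a difference of 2.33 (SE 0.463) with means of 6.23 CPM in normal Veh and 0.751 CPM in normal CC, a called fall, and of 4.69 CPM in steatotic Veh and 2.88 CPM in steatotic CC, which was not called (adjusted p = 0.180). Its adjusted p was 0.0437 and lay above 0.05 in 7 of the 8 fits that left out a library (0.0566 to 0.141). *S1pr1* had a difference of 0.54 (SE 0.0867), with an adjusted p of 0.0182 that lay above 0.05 in 7 of these 8 fits (0.0506 to 0.0725).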

How the results depend on the processing

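Most results kept their direction and their side of the threshold under 8 other settings and when each of the 8 libraries was left out, with the exceptions given here and in the report. Deviations from the group means of same-numbered libraries correlated at -0.020 to 0.121 over 9996 genes. This cannot decide whether libraries were paired, since the highest value was between normal CC and steatotic Veh, which came from different mice. What the replicate number stands for is not known, and the replicate block was used only as an alternative. With the replicate block, 1 other endothelial gene fell in the difference between the responses to CC, against 2 without it, the difference for *Lyve1* was 0.0190 on the log2 scale, against -0.00266, and *Maf* lost its difference (adjusted p = 0.0637). With library size only, that count of other endothelial genes was also 1, *Lyve1* was at 0.0166, and *Egfl7* was at -0.0132 with CC under the label normal, against 0.0232. With every gene with a count tested, *Lyve1* was at 0.00653. The markers that fell in this difference numbered 2 in DESeq2 and 2 with every gene with a count, *Dnase1l3* being the addition, against 1. *Oit3* lost its call between the labels with CC in DESeq2 (adjusted p = 0.0739), with every gene with a count (0.0605) and with the compared libraries alone (0.0732). *S1pr1* lost its call there under all 8 settings (0.0512 to 0.113), and *Angpt2* its call with CC under the label steatotic under 6 of 8 (0.0506 to 0.105). *Maf* lost its difference also with library size only (0.0547). With the compared libraries alone, *Vegfb* with CC under the label steatotic (0.0911) and *Vegfc* (0.114), *Flt1* (0.0616), *Ehd3* (0.0570) and *Lyve1* (0.0539) between the labels with CC lost their calls, and *Ptprb* gained one (0.0338). In the same fits, 0 markers fell with CC under the label normal, against 1, and fewer residual degrees of freedom were left.

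A group left with 1 library was assumed to vary like the others. Over these 8 fits, 0 to 1 markers fell at Veh between the labels, 0 to 1 rose and 0 to 1 fell with CC under the label normal, and 3 to 4 rose between the labels with CC, against 5 in all libraries, and the libraries behind these losses are named in the report for *Stab2*, *Lyve1*, *Oit3* and *Dnase1l3*. In the difference between the responses, 3 to 4 other endothelial genes rose, against 5, and 1 fell, against 2, and 3 to 6 fell between the labels with CC, against 5. Of the other endothelial genes, calls were also lost in some of these fits for *Cdh5* at Veh (adjusted p up to 0.0759) and with CC under the label steatotic (up to 0.115), *Emcn* between the labels at Veh (up to 0.0758) and with CC (up to 0.101), *Icam2* with CC under the label steatotic (up to 0.0810), and *Bmp2* (up to 0.0763), *Ehd3* (up to 0.167), *Flt1* (up to 0.0713), *Vegfc* (up to 0.0833), *Angpt2* (0.0509) and *S1pr1* (up to 0.166) between the labels with CC. Estimates near 0 that were not called crossed it. For *Lyve1* they ran from -0.49 to 0.00356 with CC under the label normal and from -0.23 to 0.26 in the difference. For *Ptprb* they ran from -0.15 to 0.73 at Veh, -0.62 to 0.22 with CC under the label normal, -0.24 to 0.47 under the label steatotic and -0.16 to 0.73 in the difference. For *Tek* they ran from -0.18 to 0.0244, -0.00488 to 0.22, -0.20 to 0.16 and -0.32 to 0.0430 in the same order, and for *Egfl7* from -0.0306 to 0.0822 with CC under the label normal. The cause was not tested. With 2 libraries in a group, the depth limits statements on *Clec4g* and *Lyve1*.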
